A study of Homo sapiens with 16 samples.

Results

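Glycolysis and the response to low oxygen were followed here through 39 genes, given as 40 names because PKM and PKM2 are one gene. All 39 were present among the 22892 genes of the first expression table (HiSeq) and among the 25606 genes of the second (NextSeq). By role, the list held 2 glucose transporters, 9 genes of upper glycolysis, 6 of lower glycolysis, 4 of lactate and pyruvate handling, 2 of fructose bisphosphate control, 3 of oxygen sensing and 13 further targets of the hypoxia response.

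Glycolysis splits glucose into pyruvate, and lactate dehydrogenase turns pyruvate into lactate, which leaves the cell through carriers such as SLC16A3. The transcription factor HIF-1 links this pathway to oxygen. Its alpha subunit, encoded by HIF1A, is marked for breakdown by the EGLN prolyl hydroxylases while oxygen is present. When oxygen falls, the protein persists, pairs with ARNT and activates glucose transporters, glycolytic enzymes and genes such as VEGFA and BNIP3. Cultured tumour cells keep many of these genes active in air. HIF-1 is controlled largely at the protein level, which RNA does not measure.

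The cells were HT1080, a human fibrosarcoma line, in clones that carry a constitutive Tet repressor and one copy of an XIST cDNA that doxycycline (DOX) switches on. XIST is the non-coding RNA that silences the chromosome from which it is made. The cDNA sat in an intron of MACF1 on 1p, of AGPAT5 on 8p or of FAM222A (listed as C12orf34) on 12q. The HiSeq table held 6 libraries, namely 8p No DOX, 2 of 8p after DOX, 1p with XIST after DOX, 1p with an empty vector after DOX, and 12q after DOX. The NextSeq table held 4 libraries, namely 1p No DOX, 1p DOX, 12q No DOX and 12q DOX. Every DOX treatment lasted 5 days. Each group was a clone or a few clones of one line, the 12q clones descended from another Tet repressor integration than the 1p and 8p clones, and the study speaks of 2 clones for 8p DOX. No library with the empty vector and No DOX was analysed here, so effects of DOX and of XIST cannot be told apart.

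The values were FPKM, fragments per kilobase of transcript scaled to the mapped total of each library, which compare genes per length. The files hold no counts, so the depth behind each value is unknown. XIST was listed at 3.38 FPKM in 8p No DOX and at 99.0 and 89.7 in 8p DOX, at 23.8 in 1p XIST DOX, at 0.0705 in the empty-vector library and at 61.9 in 12q DOX. In the NextSeq table XIST stood at 4.17 and 22.0 in the 1p clone and at 3.75 and 67.6 in the 12q clone, No DOX first. All 10 mesenchymal markers were present (summed FPKM 3069 to 4352 in HiSeq and 3633 to 5374 in NextSeq), while 4 endothelial markers summed to at most 7.94. The 6 epithelial markers summed to 0.321 to 1.21 FPKM in HiSeq and to 1.07 in both 1p libraries, 2.96 in 12q No DOX and 7.92 in 12q DOX of NextSeq. In that 12q DOX library EPCAM was at 2.38, CDH1 at 1.38, KRT19 at 0.964, ESRP1 at 0.719 and CDH3 at 0.417 FPKM. All 5 were listed at 0 in 12q No DOX and did not exceed 0.0906 FPKM in any other library, and CLDN4 was at 2.06 after a No DOX value of 2.96. Of 5 leukocyte markers PTPRC was listed at 0, but LCP1, an actin-bundling protein, separated the clones. It stood at 2.03 to 2.79 FPKM in the 8p and 1p XIST libraries of the HiSeq table, at 114 in the empty-vector library and at 151 in 12q DOX, and in NextSeq at 3.82 and 3.12 in 1p and 207 and 226 in 12q. CDH5, an endothelial cadherin, was at 5.44 FPKM in 12q DOX, at 0.0157 in 1p XIST, at 0.00747 in the empty-vector library and at 0.673 to 0.835 in the 8p libraries of HiSeq, and in NextSeq at 0.0545 and 0.0447 in 1p and 7.06 and 5.70 in 12q. The empty-vector library, labelled 1p, thus stood with 12q in LCP1 and with 1p in CDH5. It is a clone of its own, so every comparison with it is also one between clones. In bulk RNA, fewer cells that express a gene and less RNA in each cell cannot be told apart.

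GAPDH, which oxidises glyceraldehyde phosphate, was the highest member in both tables, at 2050 to 3301 FPKM in HiSeq and 2932 to 3801 in NextSeq. ENO1, the main enolase, followed at 633 to 1229.5 and 1184 to 1509.9 FPKM. PKM, the pyruvate kinase gene, came next at 543 to 834 and 683 to 1012 FPKM, and its symbol does not separate the M1 and M2 forms. ALDOA (498 to 738 and 626 to 776 FPKM), LDHA (211 to 512 and 622 to 894 FPKM) and LDHB (313 to 408 and 694 to 776 FPKM) made up the rest of the top 6 of each table. In each of these 6 genes the lowest HiSeq value was that of the empty-vector library, which was lowest in 42.6 % of all genes tested. Several of these enzymes, GAPDH among them, have many processed pseudogenes, so reads could have been split between copies.

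Oxygen sensing was carried by HIF1A at 40.6 to 149 FPKM in HiSeq and 73.5 to 110 in NextSeq, and by the hydroxylase EGLN1 at 4.63 to 10.1 and 11.7 to 14.9 FPKM. EGLN3, a hydroxylase that is itself a hypoxia target, was listed at 0 in 5 of 6 HiSeq and 3 of 4 NextSeq libraries, and reached 0.0118 and 0.221 FPKM in the others, both 12q DOX. ADM, the vasodilator peptide adrenomedullin, did not exceed 0.0877 FPKM in HiSeq or 0.173 in NextSeq. CA9, the surface carbonic anhydrase often used as a hypoxia marker, ranged from 0.0184 to 0.478 and from 0.0447 to 1.00 FPKM. Its highest value in each table belonged to the 1p clone with XIST after DOX. These 3 genes fell under a mean of 1 FPKM and were not tested, which left 36 members of 11357 genes tested in HiSeq and of 11397 in NextSeq.

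**Figure D1:**
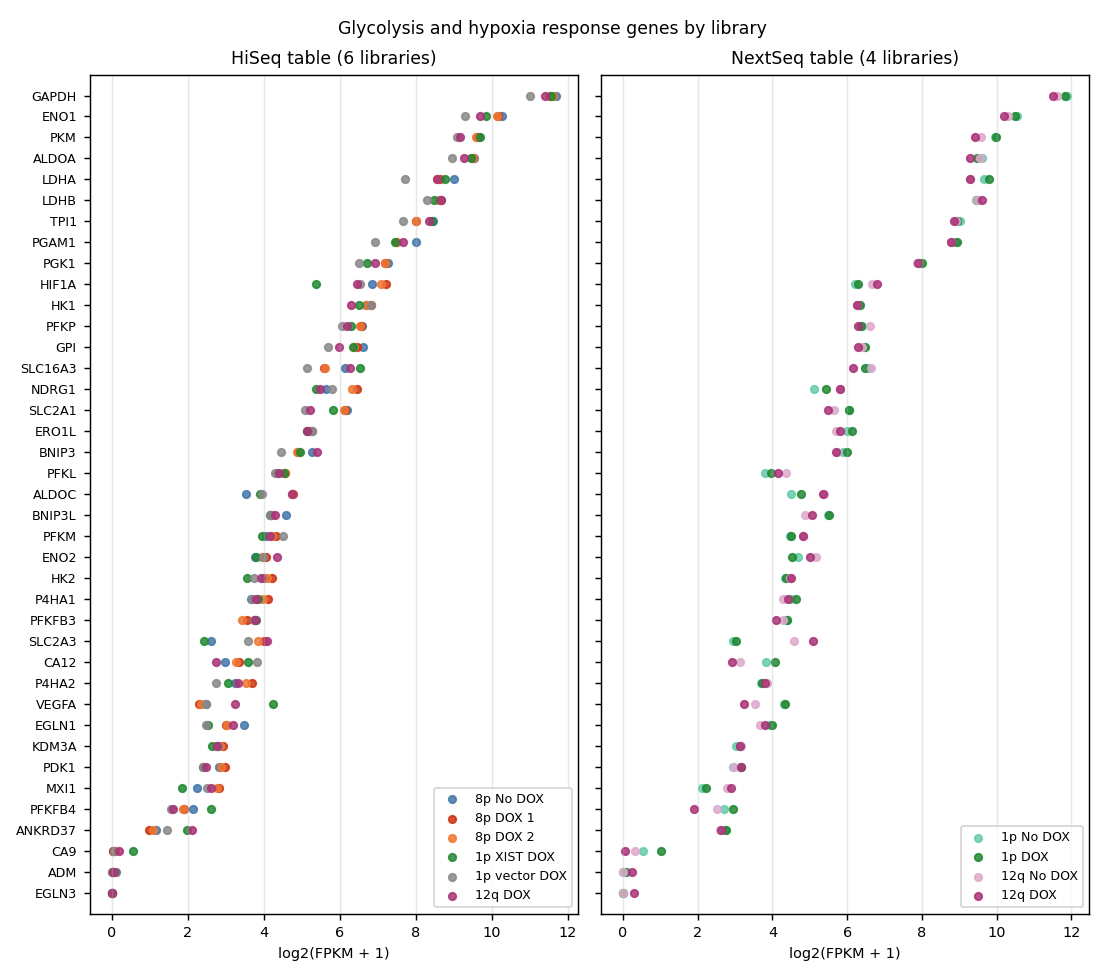
Levels of the 39 genes on the log2(FPKM + 1) axis, one point per library, HiSeq on the left and NextSeq on the right, genes ordered by their HiSeq mean. GAPDH stands highest, and EGLN3, ADM and CA9 stand at the bottom, at or near 0.

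Within pairs of enzymes or transporters that do the same step, the share of one gene varied between libraries. SLC2A3, the high-affinity neuronal glucose transporter, made up 6.64 % of the summed FPKM of SLC2A1 and SLC2A3 in 8p No DOX and 17.7 % and 16.4 % in 8p DOX. The share was 7.36 % in 1p XIST DOX, 25.0 % in the empty-vector library and 30.7 % in 12q DOX. In NextSeq it was 9.31 % and 9.86 % in the 1p clone against 31.9 % and 42.5 % in the 12q clone, so the highest shares of both tables were those of 12q. ALDOC, the brain form of aldolase, held 1.41 % of the aldolase pair in 8p No DOX, 3.51 % and 3.42 % in 8p DOX and 4.02 % in 12q DOX. In NextSeq ALDOC held 2.70 % and 3.56 % in 1p and 5.13 % and 6.03 % in 12q. ENO2, the neuronal enolase, held 1.02 % to 2.29 % of its pair in HiSeq and 1.51 % to 2.70 % in NextSeq. LDHB, the form of lactate dehydrogenase rich in heart, held 44.1 % of its pair in 8p No DOX, 50.0 % and 50.8 % in 8p DOX, and 59.8 % in the empty-vector library, the highest of all 10. All 39 genes together made up 1.68 % to 2.32 % of the summed FPKM in HiSeq and 2.20 % to 2.60 % in NextSeq.

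**Figure D2:**
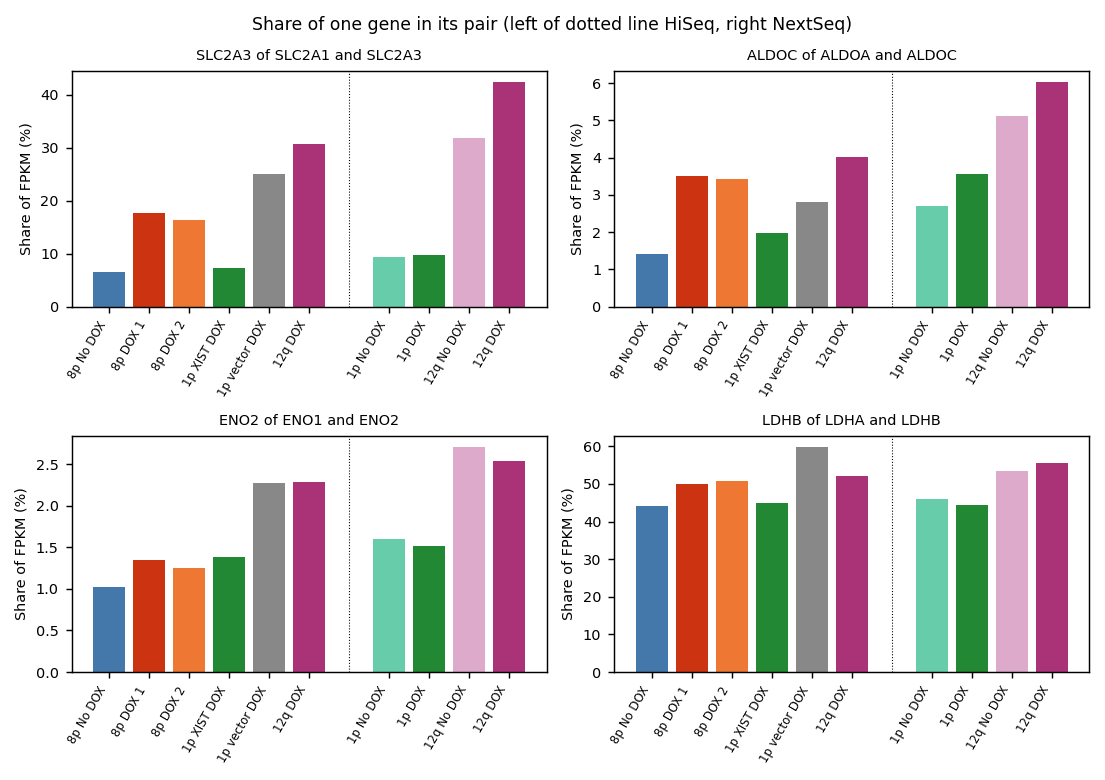
Share (%) of SLC2A3, ALDOC, ENO2 and LDHB in the summed FPKM of their pairs, one bar per library, HiSeq left of the dotted line and NextSeq right of it. SLC2A3 reaches 42.5 % in 12q DOX and starts at 6.64 % in 8p No DOX.

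The first comparison asked what 5 days of DOX changed in the 8p cells. SLC2A3, ALDOC, NDRG1, MXI1, P4HA1 and CA12 were higher after DOX, and SLC16A3, PGAM1, TPI1, EGLN1, LDHA, BNIP3L and BNIP3 were lower, by limma with Benjamini-Hochberg adjustment over all genes tested. These 13 members were 36.1 % of 36, beside 31.1 % of all genes (3537 of 11357), a share near the background. The 6 higher members were 16.7 % of 36 against 11.3 % of all genes higher, and the 7 lower ones 19.4 % against 19.8 %. The median member differed by -0.042 on the log2(FPKM + 1) scale and the median gene by -0.058. The DOX pair came from separate clones, and which of them the No DOX library shares is not given in the sources used here, so differences of DOX and of clone cannot be told apart. With one No DOX library, the spread was that of the DOX pair and the lone library was assumed to vary like it. When the spread was pooled with the 3 other HiSeq DOX libraries, 10 genes and 0 members passed (632 genes and 2 members at unadjusted p under 0.05). With the libraries rescaled to one median, 18 members passed, 11 higher and 7 lower, and the higher share of all calls moved from 36.4 % (1286 of 3537) to 51.0 % (2169 of 4249).

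SLC2A3 was at 5.13 FPKM in 8p No DOX and at 15.0 and 13.5 FPKM in the DOX pair, 14.2 ± 1.06 (SD, n = 2), a 2.78-fold rise of 1.31 ± 0.094 on the log2 scale (SE, limma adjusted p = 0.0158). Both DOX values lay within the 4.40 to 15.99 FPKM of the 3 other HiSeq DOX libraries. ALDOC was at 10.6 FPKM without DOX and at 26.3 and 25.9 with it, 2.47-fold or 1.23 ± 0.072 on the log2 scale (limma adjusted p = 0.0148). The DOX pair lay just above the 14.1 to 25.7 FPKM of the other DOX libraries. NDRG1, a stress-responsive gene on 8q, was at 49.3 FPKM without DOX and at 86.8 and 78.7 with it, a difference of 0.73 ± 0.093 (limma adjusted p = 0.0180). No other HiSeq library exceeded 54.8 FPKM of NDRG1. MXI1, a MYC antagonist, was at 3.71 FPKM without DOX and at 6.02 and 5.88 with it, a difference of 0.56 ± 0.075 (limma adjusted p = 0.0186), above the 2.58 to 5.16 FPKM elsewhere.

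P4HA1, a collagen prolyl hydroxylase subunit, went from 11.7 FPKM to 16.3 and 14.9 (0.38 ± 0.089 on the log2 scale, limma adjusted p = 0.0431). CA12, a second surface carbonic anhydrase, went from 6.91 FPKM to 9.20 and 8.66 (0.33 ± 0.080, limma adjusted p = 0.0474). Of the 6 higher members, 4 lay above the range of the 3 other HiSeq DOX libraries and 2, SLC2A3 and CA12, within it. HIF1A itself was at 114 FPKM without DOX and at 149 and 136 with it, a difference of 0.32 ± 0.091 that missed the threshold (limma adjusted p = 0.0635). It passed among genes with a mean of at least 5 FPKM (adjusted p = 0.0304) and with the libraries rescaled to one median (0.39, adjusted p = 0.0247).

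Among the lower members, SLC16A3, the lactate exporter, was at 69.5 FPKM without DOX and at 47.0 and 47.8 with it, and fell by 0.54 ± 0.072 on the log2 scale (limma adjusted p = 0.0186). PGAM1, a phosphoglycerate mutase, was at 256 FPKM without DOX and at 178 and 182 with it, and fell by 0.50 ± 0.077 (limma adjusted p = 0.0218). TPI1, the triose phosphate isomerase, was at 351 FPKM and then at 257 and 255, and fell by 0.46 ± 0.078 (limma adjusted p = 0.0254). In each of the 3 genes the No DOX library stood clear of the DOX pair.

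EGLN1 was at 10.1 FPKM without DOX and at 6.98 and 7.24 with it, and fell by 0.45 ± 0.076 (limma adjusted p = 0.0245). LDHA was at 512 FPKM and then at 395 and 380, and fell by 0.40 ± 0.084 (limma adjusted p = 0.0349). BNIP3, a mitophagy receptor, was at 37.5 FPKM and then at 28.7 and 28.2, and fell by 0.38 ± 0.071 (limma adjusted p = 0.0288). All 7 lower members, in the DOX pair, lay within the range of the 3 other HiSeq DOX libraries. For SLC16A3, TPI1 and BNIP3 only the empty-vector library (34.2, 203 and 20.8 FPKM) lay below the pair. These genes stood above the pair in 1p XIST DOX (92.5, 343 and 29.8 FPKM) and in 12q DOX (76.3, 325 and 41.5 FPKM). Against those 3 libraries in place of the No DOX library, no member passed, while 139 genes did. At an unadjusted p under 0.05 there were 9 of 36 members and 2895 of 11357 genes with that baseline. EGLN1, PGAM1, LDHA and CA12 then turned to the other direction. The median gene differed by 0.194 with that baseline, up from -0.058, and PGAM1 still lay below it.

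The 8p No DOX library was the only HiSeq library without DOX. It stood above all 5 DOX libraries in 13 of 36 members (36.1 %), which was the case for 35.1 % of all genes tested, and below all 5 in 3 members (8.33 %) against 6.69 % of all genes. The 13 were ENO1, SLC2A1, EGLN1, PFKP, PGAM1, LDHA, GAPDH, TPI1, ERO1L, ALDOA, GPI, BNIP3L and PGK1, and the 3 were P4HA1, ENO2 and ALDOC.

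**Figure D3:**
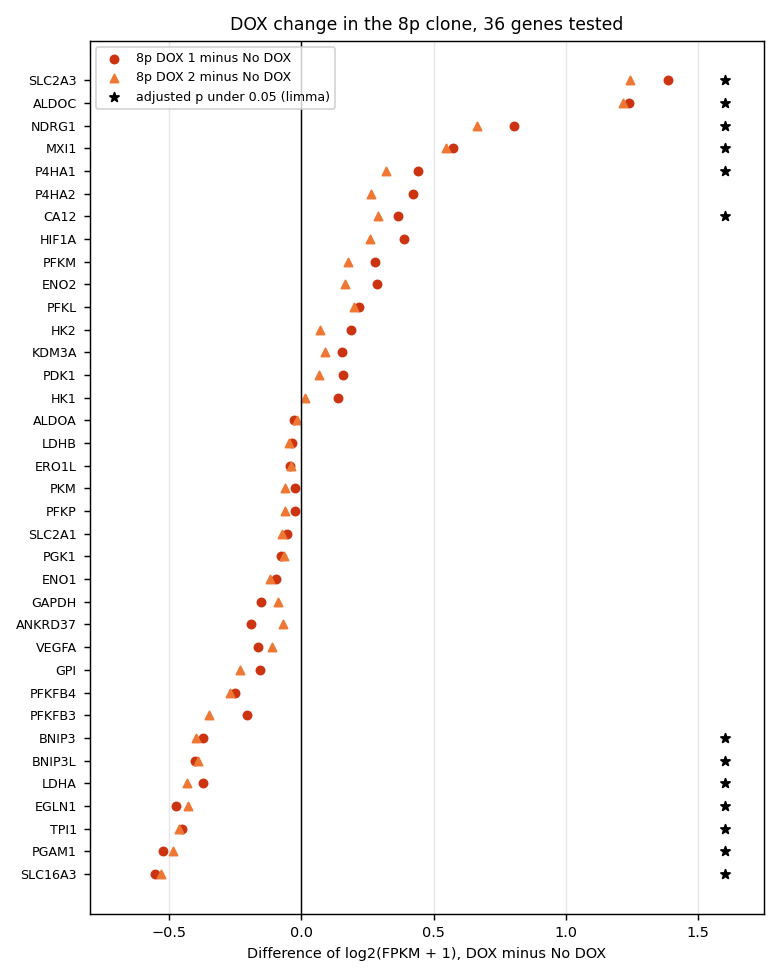
Difference of log2(FPKM + 1) between each 8p DOX library and 8p No DOX for the 36 genes tested, circles for the first and triangles for the second DOX library, stars for an adjusted p under 0.05. SLC2A3 and ALDOC stand farthest right at 1.31 and 1.23 on average, and SLC16A3 and PGAM1 farthest left at -0.54 and -0.50.

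The DNA letters to which HIF-1 binds are known, and so the promoters of 2 genes that rose and 2 that fell are printed, in each direction one with and one without these letters. The sequences are the 250 bases before the RefSeq start on the gene's strand (GRCh38.p14), and capitals mark the cores ACGTG and GCGTG, searched on both strands. A core on the other strand reads CACGT or CACGC, and CACGTG holds ACGTG on both strands. ALDOC (chr17:28576896-28577145, minus strand) rose and held 4 marked runs, LDHA (chr11:18394313-18394562, plus strand) fell and held 3, MXI1 (chr10:110207355-110207604, plus strand) rose and held none, and PGAM1 (chr10:97427568-97427817, plus strand) fell and held none.
ALDOC: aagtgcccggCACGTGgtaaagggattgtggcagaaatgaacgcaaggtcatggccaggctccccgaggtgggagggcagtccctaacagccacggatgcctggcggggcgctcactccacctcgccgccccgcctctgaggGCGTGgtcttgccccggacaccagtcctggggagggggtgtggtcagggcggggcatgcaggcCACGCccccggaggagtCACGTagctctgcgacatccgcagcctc
LDHA: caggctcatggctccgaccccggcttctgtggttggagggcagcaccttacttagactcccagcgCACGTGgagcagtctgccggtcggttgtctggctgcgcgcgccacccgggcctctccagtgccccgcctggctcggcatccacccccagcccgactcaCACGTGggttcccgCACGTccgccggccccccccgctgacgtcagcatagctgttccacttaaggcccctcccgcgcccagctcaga
MXI1: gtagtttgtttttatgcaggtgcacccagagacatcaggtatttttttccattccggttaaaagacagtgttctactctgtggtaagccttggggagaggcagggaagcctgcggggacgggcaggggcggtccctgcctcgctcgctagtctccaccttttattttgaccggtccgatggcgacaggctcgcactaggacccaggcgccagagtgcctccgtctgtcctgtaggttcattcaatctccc
PGAM1: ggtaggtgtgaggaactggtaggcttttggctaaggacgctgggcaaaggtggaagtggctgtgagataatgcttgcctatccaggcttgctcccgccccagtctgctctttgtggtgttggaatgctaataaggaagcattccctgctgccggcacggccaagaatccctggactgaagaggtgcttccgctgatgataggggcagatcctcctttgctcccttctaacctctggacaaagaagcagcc

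RefSeq gave promoters for 35 of the 39 genes. ACGTG was present in 14 of 35 (40 %), against 18.5 % of 35116 promoters of the same length, and GCGTG in 13 of 35 (37.1 %) against 32.2 %. Either core was present in 22 of 35 (62.9 %) and in 43.2 % of all promoters. All promoters were not matched to the members in base composition, and the members were listed as glycolysis and hypoxia response genes to begin with. Genes with and without cores were found in both directions of the 8p DOX comparison, as the 4 sequences show. A match describes the letters only, and their absence from this window tells nothing of the factor.

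DOX in the 1p and 12q clones was measured in the NextSeq table. Over both clones, with the clone as a block, 0 of 36 members passed limma's test, where 1 gene of 11397 (0.00877 %) did. At an unadjusted p under 0.05 there were 746 genes and 2 members, ALDOA and SLC16A3. ALDOA was at 776 and 708 FPKM in 1p and at 755 and 626 in 12q, No DOX first, a difference of -0.20 ± 0.064. SLC16A3 was at 94.7 and 88.3 FPKM in 1p and at 98.5 and 70.2 in 12q, a difference of -0.29 ± 0.11. Both had a limma adjusted p of 0.702. Member differences ran from -0.29 for SLC16A3 to 0.29 for SLC2A3, with a median of 0.023 against -0.011 for all genes, and the members' standard errors lay between 0.055 and 0.22.

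With one library per condition, a difference of at least 0.5 on the log2 scale was counted in each clone, with no test. In 1p no member reached it, where 1.48 % of all genes did. The largest member differences in 1p were those of NDRG1 (33.6 to 42.5 FPKM, 0.33) and ALDOC (21.5 to 26.1 FPKM, 0.27). In 12q 1 of 36 members reached it, where 4.43 % of all genes did, with 25.3 % of these higher or 39.9 % after rescaling to one median. That member was PFKFB4, a regulator of phosphofructokinase, at 4.76 FPKM without DOX and 2.74 with it, a difference of -0.62. Next to it came SLC2A3 (23.0 to 32.6 FPKM, 0.49) and SLC16A3 (98.5 to 70.2 FPKM, -0.48). The epithelial markers moved with the same contrast, from 2.96 to 7.92 summed FPKM, and EGLN3 and ADM also had their highest NextSeq values in 12q DOX. The part of these markers in the 12q differences was not tested. Of the 13 members past the 8p test, SLC2A3, NDRG1, MXI1 and P4HA1 had positive differences in 1p and 12q too, and SLC16A3 and TPI1 negative ones. In 1p and 12q these differences were 0.088 and 0.49 for SLC2A3, 0.33 and 0.014 for NDRG1, 0.11 and 0.12 for MXI1, and 0.13 and 0.13 for P4HA1. They were -0.10 and -0.48 for SLC16A3, and -0.078 and -0.064 for TPI1. Across all genes tested the median was 0 in 1p and -0.024 in 12q. How many of all genes past the 8p test kept their sign in both clones is not given here.

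**Figure D4:**
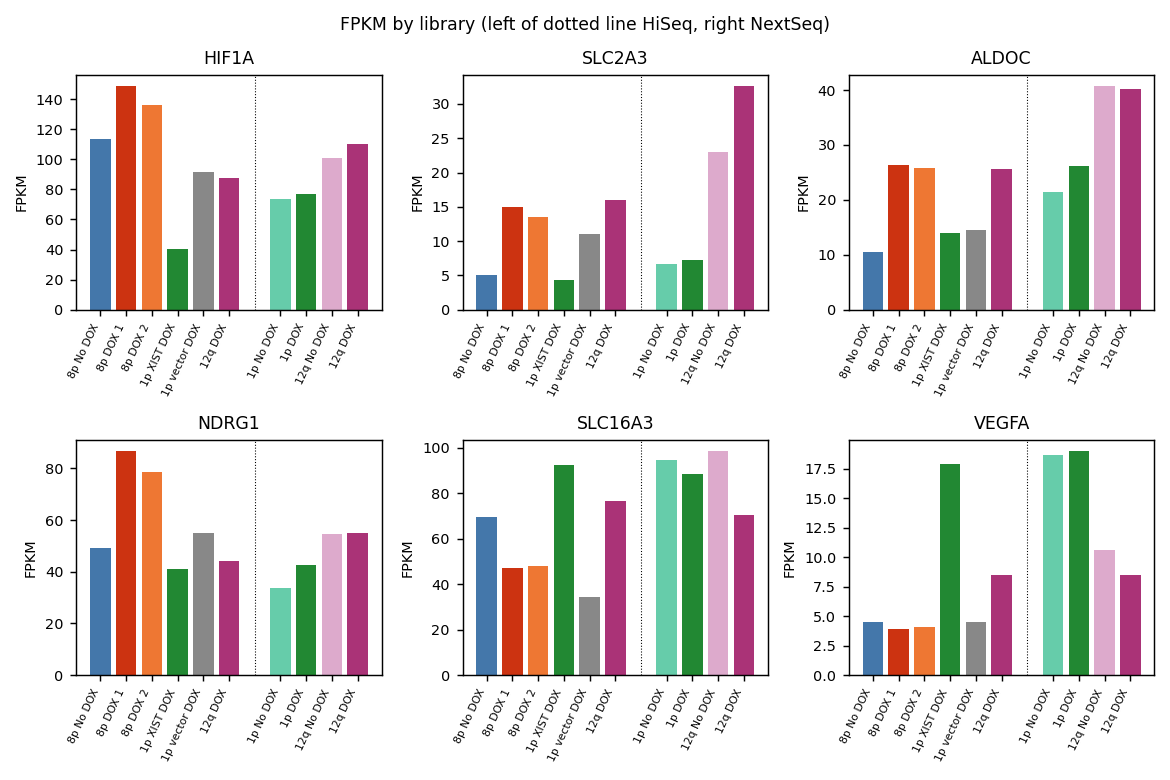
FPKM of HIF1A, SLC2A3, ALDOC, NDRG1, SLC16A3 and VEGFA, one bar per library, HiSeq left of the dotted line and NextSeq right of it. VEGFA reads 17.9 FPKM in 1p XIST DOX and at most 8.53 in the other HiSeq libraries, while SLC2A3 is highest in 12q DOX in both tables.

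The NextSeq libraries also compared the clones with each other. In NextSeq, over both conditions, 16 of 36 members (44.4 %) differed between the 12q and 1p clones, beside 32.8 % of all genes. SLC2A3, ALDOC, MXI1, NDRG1, ENO2, HIF1A and PFKM were higher in 12q, 7 members against 17.9 % of all genes higher. CA12, VEGFA, BNIP3L, SLC2A1, PKM, LDHA, ERO1L, GAPDH and ENO1 were lower in 12q, 9 members against 15.0 % of all genes lower. The median member differed by -0.12 and the median gene by 0.016. The p-values measure the spread of the DOX change between these 2 clones, not that between further clones of either site. Without the filter on low values 9 members passed. Since the 12q DOX library held epithelial markers, the No DOX libraries were also compared alone. This alternative was chosen after seeing the data and had no test. All 16 members kept their sign there, which was fixed in advance because their 12q and 1p libraries did not overlap. The kept signs thus tell nothing of the part of the epithelial markers. In the No DOX libraries alone SLC2A3 differed by 1.64, ALDOC by 0.89, CA12 by -0.71 and VEGFA by -0.76.

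SLC2A3 showed the largest difference, at 6.71 and 7.19 FPKM in 1p and 23.0 and 32.6 in 12q, 4.01-fold or 1.84 ± 0.12 on the log2 scale (limma adjusted p = 0.0031). ALDOC was at 21.5 and 26.1 FPKM in 1p and at 40.8 and 40.2 in 12q, a difference of 0.75 ± 0.092 (limma adjusted p = 0.0093). MXI1 was at 3.36 and 3.69 FPKM in 1p and at 5.85 and 6.46 in 12q, a difference of 0.66 ± 0.091 (limma adjusted p = 0.0118). In all 3 genes both 12q libraries stood above both 1p libraries. HIF1A was at 73.5 and 76.9 FPKM in 1p and at 101 and 110 in 12q, a difference of 0.48 ± 0.058 (limma adjusted p = 0.0089). NDRG1, at 33.6 and 42.5 against 54.6 and 55.1 FPKM, differed by 0.53 ± 0.095 (limma adjusted p = 0.0205), and ENO2, at 24.5 and 22.0 against 35.2 and 30.9 FPKM, by 0.49 ± 0.063 (limma adjusted p = 0.0103). The groups of these genes did not overlap either.

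CA12 was at 13.3 and 15.9 FPKM in 1p and at 7.76 and 6.57 in 12q, a difference of -0.93 ± 0.13 (limma adjusted p = 0.0119). VEGFA, the growth factor that calls in blood vessels, was at 18.7 and 19.02 FPKM in 1p and at 10.6 and 8.49 in 12q, a difference of -0.92 ± 0.10 (limma adjusted p = 0.0075). SLC2A1, the widespread glucose transporter, was at 65.3 and 65.8 FPKM in 1p and at 49.2 and 44.3 in 12q, a difference of -0.48 ± 0.070 (limma adjusted p = 0.0129). The lower SLC2A1 and the higher SLC2A3 of the 12q clone thus came together. PKM, at 1000.6 and 1012 against 764 and 683 FPKM, differed by -0.48 ± 0.069 (limma adjusted p = 0.0130). LDHA, at 816 and 894 against 622 and 623 FPKM, differed by -0.45 ± 0.063 (limma adjusted p = 0.0119). BNIP3L, a mitophagy receptor on 8p, was at 44.0 and 44.6 FPKM in 1p and at 28.5 and 32.6 in 12q, a difference of -0.52 ± 0.073 (limma adjusted p = 0.0119).

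Across all members, 12 were higher in both 12q libraries than in both 1p libraries, as were 37.7 % of all genes, and 20 were lower, as were 34.0 % of all genes. By role, lower glycolysis had 3 of 6 lower (ENO1, GAPDH and PKM) and 1 higher (ENO2) among those past the test. The 11 tested further targets had 4 lower and 2 higher, the 2 glucose transporters 1 lower and 1 higher. Lactate and pyruvate handling had 1 of 4 lower and 0 higher. Upper glycolysis had 2 of 9 past the test, ALDOC and PFKM, both higher, and oxygen sensing 1 of 2, HIF1A, higher. Among all genes 17.9 % were higher and 15.0 % lower.

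The HiSeq table held other libraries of the same sites, with 12q DOX and 1p XIST DOX one each, a comparison chosen after seeing the data. There the median gene differed by 0.128, and 15 of the 16 members past the NextSeq test had the same sign relative to that median, as had 3057 of 3415 (89.5 %) of all genes past it. The exception was NDRG1, whose difference of 0.11 lay below that of the median gene. SLC2A3 differed by 1.65, HIF1A by 1.09, ALDOC by 0.83 and MXI1 by 0.78 on the log2 scale. VEGFA differed by -0.99, CA12 by -0.85, SLC2A1 by -0.61 and PKM by -0.53. BNIP3L was counted among the 15 but lay level with the median gene. Where that shift is not taken off, BNIP3L went the other way, at 16.9 FPKM in 1p XIST DOX and 18.6 in 12q DOX (0.13). Set against the empty-vector library in place of 1p XIST, 8 of 16 members and 59.6 % of all genes had the NextSeq sign.

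**Figure D5:**
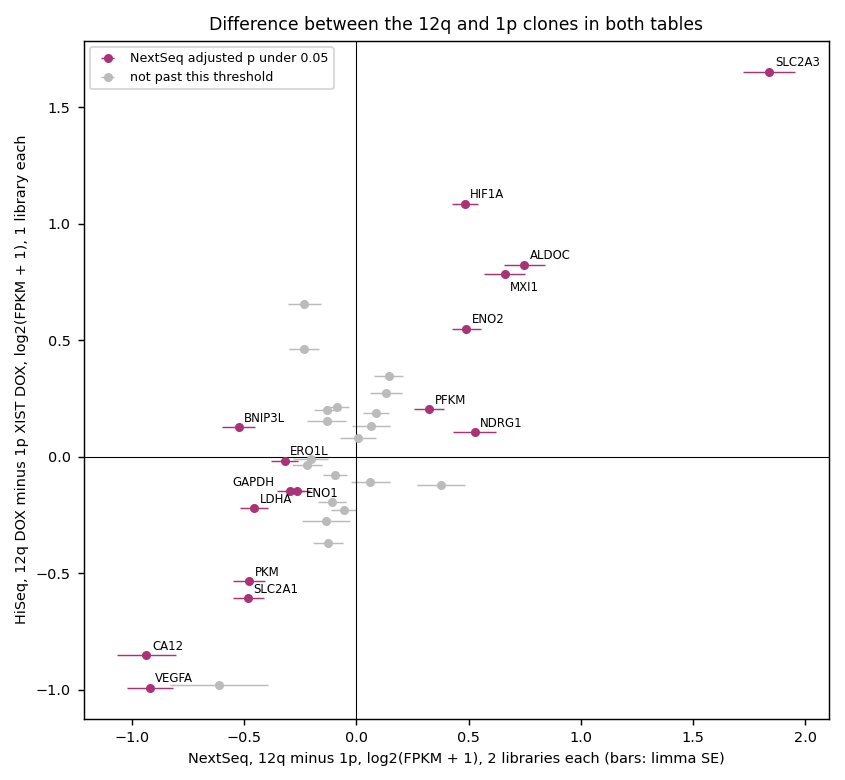
Difference between 12q and 1p on the log2(FPKM + 1) scale, NextSeq (2 libraries each, bars are the limma SE) on the horizontal axis and HiSeq (12q DOX minus 1p XIST DOX, 1 library each) on the vertical axis, one point per gene. SLC2A3 lies at 1.84 and 1.65, VEGFA at -0.92 and -0.99.

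The 3 libraries of the 8p site were also set against the 3 other HiSeq libraries. The 8p libraries share one integration site and include the only HiSeq library without DOX. The others came from different clones, the empty-vector one without the XIST cDNA. Site, clone, DOX and XIST cannot be told apart in this comparison. No member passed limma's test, where 5.17 % of all genes did. At an unadjusted p under 0.05 there were 11 of 36 members and 3289 of 11357 genes. The median gene was 0.215 higher in the 8p libraries, so differences are also given relative to it. With the libraries rescaled, the higher share of all calls went from 79.4 % (466 of 587) to 43.0 % (192 of 447). HIF1A was at 114, 149 and 136 FPKM in the 8p libraries and at 40.6, 91.8 and 87.5 in the others, a difference of 0.93 ± 0.31, or 0.71 relative to the median gene (limma adjusted p = 0.109). SLC2A1 was at 72.1, 69.5 and 68.6 FPKM against 55.4, 33.2 and 36.0, a difference of 0.78 ± 0.20, or 0.56 relative (limma adjusted p = 0.071). Left without 1p XIST DOX, SLC2A1 passed (0.996, adjusted p = 0.0324), and left without 12q DOX, PGK1, a kinase of lower glycolysis, passed (0.62, adjusted p = 0.0316). Without 1p XIST DOX the median gene differed by 0.218, and 224 of 11357 genes and 1 member passed. Without 12q DOX the median gene differed by 0.275, and 1724 genes, 1536 of them higher, and 1 member passed. Neither SLC2A1 nor PGK1 overlapped between the groups, as was the case for 9 members higher at the 8p site (31.8 % of all genes) and for 2 lower (5.38 % of all genes).

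The 2 lower ones were VEGFA and ANKRD37. VEGFA was at 4.54, 3.94 and 4.12 FPKM in the 8p libraries and at 17.9, 4.54 and 8.53 in the others, a difference of -0.94 ± 0.40 (limma adjusted p = 0.168). The groups came within 0.01 FPKM of each other in VEGFA, between 8p No DOX and the empty vector. ANKRD37, an ankyrin repeat gene on 4q induced by hypoxia, was at 1.25, 0.968 and 1.14 FPKM against 2.92, 1.74 and 3.36, a difference of -0.77 ± 0.20 (limma adjusted p = 0.0725). It passed with the libraries rescaled to one median (-0.98, adjusted p = 0.0328) and without the empty-vector library (-0.97, adjusted p = 0.0391). The 284 genes tested on chromosome 4 beyond 35 Mb had a median of -0.40 in the same comparison, and 42 of them (14.8 %) were as low as ANKRD37.

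The empty-vector library stood apart from 1p XIST DOX in 16 of 36 members by at least 0.5 on the log2 scale, against 27.5 % of all genes, with one library each and no test. The 12 higher in 1p XIST were 33.3 % of the members, beside 17.6 % of all genes higher, and the 4 lower were 11.1 %, beside 9.84 % lower. VEGFA was at 17.9 FPKM with XIST and 4.54 with the vector (1.77). SLC16A3 was at 92.5 and 34.2 FPKM (1.41), LDHA at 439 and 211 (1.06) and PFKFB4 at 5.07 and 1.93 (1.05). TPI1, SLC2A1, GPI, PKM, GAPDH, ENO1, PGAM1 and ANKRD37 were higher by 0.51 to 0.75. By role, 4 of 6 genes of lower glycolysis and 2 of 4 of lactate and pyruvate handling were higher and 0 lower. Upper glycolysis had 2 higher and 1 lower of 9, and the further targets 2 higher and 1 lower of 11. The 2 glucose transporters had 1 higher and 1 lower, fructose bisphosphate control 1 of 2 higher, and oxygen sensing 1 of 2 lower.

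HIF1A was lower in 1p XIST, at 40.6 against 91.8 FPKM (-1.16), as were SLC2A3 at 4.40 against 11.1 (-1.16), MXI1 at 2.58 against 4.66 (-0.66) and PFKM at 14.5 against 21.8 (-0.56). The median member differed by 0.20 and the median gene by 0.088. With both libraries rescaled to one median, 8 members were higher and 5 lower, and the higher share of all genes counted went from 64.2 % to 50.4 %. The empty-vector library had the FPKM minimum of the HiSeq table in 20 of 36 members (55.6 %), among them GAPDH, ENO1 and LDHA, and in 42.6 % of all genes tested, and its summed FPKM was the lowest of the table. XIST and clone cannot be told apart here, and LCP1 (2.03 against 114 FPKM) moved with the same contrast.

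Of the members, BNIP3L and SLC2A1 lay nearest to an XIST integration on its own chromosome. BNIP3L (hg18 chr8:26296439-26326561) lay 19.7 Mb from AGPAT5. It was at 22.9 FPKM in 8p No DOX and at 17.1 and 17.3 in 8p DOX, a reduction of 25.1 %, and fell by 0.40 ± 0.071 on the log2 scale (limma adjusted p = 0.0270). The 3 other HiSeq DOX libraries, with XIST elsewhere or absent, held 16.9, 16.9 and 18.6 FPKM, so the 8p DOX pair lay within their range. The 94 genes tested within 30 Mb of AGPAT5 had a median of -0.30, and 39 of them (41.5 %) were as low as BNIP3L or lower. NDRG1, on the other arm at 128 Mb from AGPAT5, was among the members that rose.

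SLC2A1 (hg18 chr1:43163632-43197434) lay 3.66 Mb from MACF1. It was at 65.3 FPKM in 1p No DOX and 65.8 in 1p DOX, a difference of 0.01 with no replicate. The 387 genes within 30 Mb of MACF1 had a median of -0.041. ENO1 (hg18 chr1:8843645-8861738), at 30.7 Mb, was at 1509.9 and 1430.0 FPKM in the same libraries. On 12q, PFKM was the nearest member at 61.9 Mb from FAM222A, at 27.3 FPKM without DOX and 27.1 with it.

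Further genes of these pathways were taken from 4 lists. Of 18 further hypoxia targets tested, 5 rose and 2 fell in the 8p DOX comparison, among them BHLHE40 (0.90, a clock and stress repressor), WSB1 (0.71, a ubiquitin ligase component), ZNF395 (-0.62) and AK4 (-0.58, a mitochondrial adenylate kinase). Of 12 further genes of the HIF machinery 5 fell and 0 rose, beside 19.8 % and 11.3 % of all genes, led by EGLN2 (-0.58, a prolyl hydroxylase), CITED2 (-0.56, which competes with HIF for its co-activators) and CREBBP (-0.53, a co-activator). Of 12 genes that steer pyruvate into the citrate cycle, PC (0.54, pyruvate carboxylase) and PDP1 (0.43, which activates pyruvate dehydrogenase) rose and none fell, and of 7 pentose phosphate genes none passed. None of these lists held a gene past the test in the NextSeq DOX comparison.

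Between the 12q and 1p clones, where 17.9 % of all genes were higher in 12q and 15.0 % lower, the pyruvate genes showed 7 of 12 higher and 0 lower, with PDK3 (1.44) and PDK2 (0.98), both kinases that switch off pyruvate dehydrogenase, in the lead. PDK1, the kinase among the 39 genes, was at 6.65 and 7.94 FPKM in 1p and at 6.82 and 7.85 in 12q and did not pass. Of 19 further hypoxia targets, 5 were higher and 4 lower in 12q, among them TMEM45A (1.47), ZNF395 (1.09) and LOX (-0.86). The HIF machinery had 4 higher and 3 lower of 12, including EPAS1 (0.95, the HIF-2 alpha subunit), ARNT (0.64) and ARNT2 (-0.999), the partners of the alpha subunits. The 7 pentose phosphate genes had 1 higher, TALDO1 (0.29), and 1 lower, PGLS (-0.39).

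At the 8p site against the other HiSeq libraries, where 5.17 % of all genes passed, the test was passed by 1 of 7 pentose phosphate genes, 1 of 18 further hypoxia targets, 1 of 12 genes of the HIF machinery and 2 of 12 pyruvate genes. These were TKT (transketolase), STC2 (a secreted hypoxia target), CITED2, PDP1 and DLD, all higher, as were 79.4 % of all calls before rescaling and 43.0 % after it. Relative to the median gene they differed by 0.60, 1.19, 2.30, 1.28 and 0.52. Between 1p XIST and the empty vector, by size alone, 6 of 18 further hypoxia targets were higher with XIST and 0 lower, beside 17.6 % and 9.84 % of all genes. The HIF machinery had 3 higher and 1 lower of 12, the pyruvate genes 1 higher and 3 lower of 12, and the pentose phosphate genes 1 higher and 0 lower of 7. Among these, DDIT4 (3.01, an mTOR inhibitor induced by hypoxia) and LOX (1.44) were higher, and EPAS1 (-1.73) and PDP1 (-1.11) lower. HIF1A and EPAS1 were thus both lower in 1p XIST DOX than in the empty-vector library.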

How the data were processed

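Polyadenylated, strand-specific RNA libraries of HT1080 clones were sequenced and, per the labels and the study's methods, the authors aligned reads to hg18 with TopHat and Bowtie and quantified genes with Cufflinks. Versions and annotation are not given in the sources used here. The deposited values are FPKM in 2 tables, one of 6 HiSeq libraries (50 bp paired reads per the labels) and one of 4 NextSeq libraries. Depth is unknown. Both tables were normalised separately, so changes were computed within a table. The 6 ChIP libraries were not analysed here.

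Lines whose symbol was listed more than once (739 in HiSeq and 882 in NextSeq) and symbols turned into dates (22 in each) were left out, as were 2 NextSeq genes without a value. Genes with a mean of at least 1 FPKM were tested on log2(FPKM + 1), which understates changes of low genes, with limma 3.58.1 in R 4.3.3 (lmFit, eBayes with trend, Benjamini-Hochberg, adjusted p threshold 0.05). The HiSeq DOX comparison used group means over the 6 libraries and the NextSeq fit used clone and DOX. With 1 library per condition a difference of at least 0.5 was counted. The study describes the 8p DOX pair as 2 clones. No other clone had a replicate of a condition within a table, and p-values measure the spread between these samples. The fit was tested on simulated data. The members and lists were chosen with earlier results of these data known. Per-library values were given for members past the test with the largest differences (up to 12 per comparison), the most abundant or lowest members, HIF1A, BNIP3L and SLC2A1, and at most 4 genes per further list and comparison. Alternatives were another pseudocount (0.1), no filter or a mean of at least 5 FPKM, libraries rescaled to one median, no trend, other baselines or spread, and each replicate left out. Single values of some genes of the further lists are not reported here.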

Additional observations from a re-analysis of the deposited data

Results flagged for a closer look

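In 4 members both 8p DOX libraries moved one way and the 1p and 12q clones the other. The 8p values come from the HiSeq table and the others from NextSeq, and the difference between the clones was not tested. On the log2(FPKM + 1) scale, EGLN1 differed by -0.45 in 8p, against 0.068 in 1p and 0.13 in 12q. PGAM1 differed by -0.50 in 8p, against 0.059 and 0.0077. LDHA differed by -0.40 in 8p, against 0.13 and 0.0019. BNIP3L differed by -0.40 in 8p, against 0.019 and 0.19. The same opposite signs were found in 680 of 3208 genes (21.2 %) past the 8p test and tested in both tables, and in 4 of 13 members (30.8 %). No NextSeq change has a replicate, and those of PGAM1 and LDHA in 12q were close to 0.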

How the results depend on the processing

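In the 8p DOX comparison, 3537 genes and 13 members passed; this fell to 15 genes without the low filter, 139 with the 3 other DOX libraries as baseline and 10 with the spread pooled over them, and 0 members in each of the 3. With the 3 other DOX libraries as baseline EGLN1 (0.27), PGAM1 (0.15), LDHA (0.25) and CA12 (-0.077) reversed. The median gene differed by 0.194 there, so PGAM1 did not reverse relative to it. In the NextSeq DOX comparison, 0 genes passed without the low filter, 2 without the trend and 0 without the clone block. At the 8p site against the other clones, 320 genes passed without the filter and 139 among DOX libraries alone, 31 to 1724 when one library was left out (lowest without 8p DOX 1, highest without 12q DOX), and 1 member passed after rescaling and 0 to 1 when one library was left out. Between 12q and 1p, 1971 genes and 9 members passed without the filter, and BNIP3L reversed (0.13) in the HiSeq libraries. By size in 1p DOX, 390 genes passed with a pseudocount of 0.1 and 72 at a mean of at least 5 FPKM. In 12q DOX these were 856 and 260 genes, with 2 and 0 members, and 2 members after rescaling. The cause was not tested. Alternative values were tallied for the members called or singled out in each comparison. Of these values, 290 kept their direction and side of the threshold or moved within the spread. Another 49 lost the threshold, 6 gained it, 52 moved and 5 reversed. The tally left out 12q DOX against the empty-vector library, where 8 of 16 members had the NextSeq sign relative to the median gene. With 1 of the 8p DOX pair left out no test remained. No paired analysis was possible because, beyond the clone block of the NextSeq fit, fewer than 2 replicate numbers recur in both arms of any comparison. Depth is unknown, so no limit on low values such as EGLN3, ADM and CA9 could be given.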
